A study of Mus musculus with 8 samples.

Results

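The small leucine-rich proteoglycans are secreted matrix proteins with a core of leucine-rich repeats, and most of them carry chondroitin, dermatan, or keratan sulfate chains. A list of 10 of their genes was matched by symbol to the count files. It held *Dcn*, *Bgn*, and *Aspn* of class I, *Lum*, *Fmod*, *Prelp*, *Omd*, and *Kera* of class II, *Ogn* of class III, and *Podn*, which encodes podocan. Of these, 9 had a row among the 18533 gene symbols. *Kera* had no row, so its level was not analysed, and only its position and promoter window are described. RNA came from MASMCs, which are smooth muscle cells in primary culture, taken from aortas of male mice aged 4 to 6 weeks, grown from WT mice (n = 4) and from *Hint1*-/- mice (n = 4). The knockout was not restricted to smooth muscle. The sources used here do not give the background strain of the knockout mice or whether each replicate came from its own mouse. All 8 samples received PDGF-BB, a mitogen of smooth muscle cells, at 20 ng/mL over 24 hours, so the comparison is of genotypes under PDGF-BB and no untreated cells were compared. The aorta had been stripped of adventitia and endothelium before digestion with collagenase.

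In the artery wall, these proteins bind collagen fibrils and set their diameter and spacing. Decorin and biglycan also bind TGF-β, decorin binds and restrains the receptors EGFR and MET, and soluble biglycan is a ligand of the innate receptors TLR2 and TLR4. Smooth muscle cells and adventitial fibroblasts are both known sources of them.

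*Hint1*, the targeted gene, had 2272 to 2364 counts in WT and 713 to 778 counts in *Hint1*-/- samples, so it was lower in every library labelled as a knockout. Its RNA was not absent there, at 32.1% of the WT level. Estimated counts, in which a read that matches several transcripts is shared among them, summed to between 20778077 and 20888041 per sample. Within a genotype, pairs of libraries differed by a mean chi-square of 2.10 to 5.47 per gene, above the value of about 1 that counting noise gives, so no library was a copy of another. Smooth muscle markers were present, at a summed level of 1360 to 1478 CPM in WT and 1123 to 1213 CPM in *Hint1*-/- samples. CPM are counts per 1000000 counts of the scaled library. The sum was led by *Acta2* and *Tagln*, with means of 826 and 403 CPM in WT. *Myh11*, *Cnn1*, and *Myocd* were low, with means of 20.4, 15.1, and 0.562 CPM in WT. A list of 8 macrophage markers was also present, at 1927 to 2225 CPM in WT and 1559 to 1658 CPM in *Hint1*-/- samples, led by *Lyz2*.

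Of the 9 genes, 3 passed both thresholds set for a call, an adjusted p under 0.05 from edgeR and a fold change over 1.5. *Lum* and *Dcn* were higher in *Hint1*-/- MASMCs, at 184% and 178% of the WT level, and *Fmod* was lower, at 66.3%. Of all 13535 genes tested, 2.83% passed both thresholds, 1.34% as higher and 1.49% as lower. At the limit on adjusted p alone, *Ogn* was also higher, at 125% of the WT level, and *Bgn* lower, at 92.1%, where 11.2% of all genes were higher and 10.2% lower. *Prelp*, *Podn*, *Omd*, and *Aspn* did not pass. In 4 of the 9 genes, *Dcn*, *Lum*, *Fmod*, and *Ogn*, no sample of one genotype lay within the range of the other, as in 23.0% of all genes. The median log2 fold change of the 9 genes was 0.08, against 0.00031 for all genes tested. In bulk RNA, a change in the number of cells that express a gene cannot be told apart from a change in its RNA per cell.

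**Figure D1:**
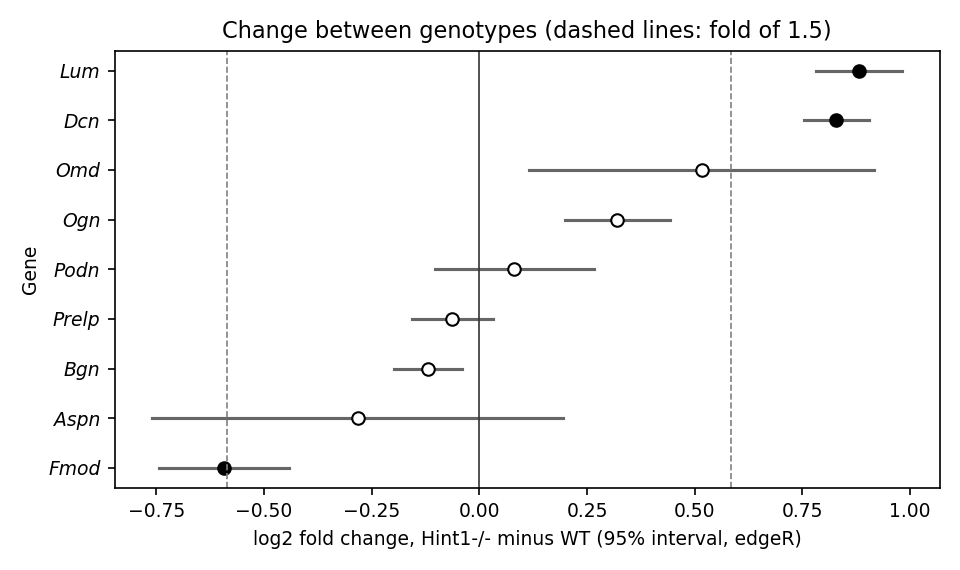
Log2 fold change of each gene, *Hint1*-/- minus WT (points), with its 95% interval from edgeR (bars), from 4 samples per genotype. Filled points passed both thresholds and dashed lines mark a fold of 1.5. *Lum* and *Dcn* lie beyond the right line with their whole intervals, whereas *Fmod*, at −0.59, lies almost on the left line.

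Most of the genes lie in chains on a chromosome. On chromosome 10 of mm10, *Dcn* (97479609 to 97518143), *Lum* (97565128 to 97572703), and *Kera* (97606879 to 97613692) follow each other on the plus strand within 134084 bp, and *Dcn* and *Lum* both rose past both thresholds. On chromosome 1, *Prelp* (133910304 to 133921414, minus strand) and *Fmod* (134037254 to 134048277, plus strand) lie within 137974 bp, and *Fmod* fell while *Prelp* did not pass the test. On chromosome 13, *Aspn* (49544443 to 49567565), *Omd* (49582462 to 49592822), and *Ogn* (49608046 to 49624501) lie within 80059 bp on the plus strand. All 3 are inside *Cenpp*, a centromere protein gene on the minus strand (49464023 to 49652785). The sources used here do not say whether counting used strand. Where exons of these 3 genes and of *Cenpp* overlap, reads may not be told apart, and such overlap was not examined. *Cenpp* was counted 63 to 83 times in WT and 67 to 90 times in *Hint1*-/- samples, which is above the counts of *Aspn* and *Omd* and far under those of *Ogn*. *Bgn* (chromosome X, 73483602 to 73495933) and *Podn* (chromosome 4, 108014791 to 108096445, minus strand) lie alone.

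RefSeq's promoter windows, on GRCm38.p6, which is the assembly of mm10, were matched for 8 of the 10 genes, all but *Dcn* and *Lum*. The 250 bases before the start of *Fmod*, which fell, of *Ogn*, which was higher without reaching the fold limit, and of *Bgn*, the most abundant, are shown 5′ to 3′ on the gene's strand. The first of the *Podn* windows is added because it alone matched the AP-2 motif searched, and TFAP2A, an AP-2 factor, is a subject of the study. Capitals mark matches to the motifs named after the sequences.
Fmod, chr1:134037004-134037253, plus strand: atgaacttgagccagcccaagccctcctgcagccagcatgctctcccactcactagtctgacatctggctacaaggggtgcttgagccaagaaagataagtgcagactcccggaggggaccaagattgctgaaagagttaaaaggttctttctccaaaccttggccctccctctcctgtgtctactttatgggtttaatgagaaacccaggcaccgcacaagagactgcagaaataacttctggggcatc
Ogn, chr13:49607765-49608014, plus strand: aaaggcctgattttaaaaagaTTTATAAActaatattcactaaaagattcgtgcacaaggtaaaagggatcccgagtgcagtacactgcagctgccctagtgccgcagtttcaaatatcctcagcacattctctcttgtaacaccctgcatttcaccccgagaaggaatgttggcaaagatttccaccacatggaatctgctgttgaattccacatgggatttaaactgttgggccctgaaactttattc
Bgn, chrX:73483351-73483600, plus strand: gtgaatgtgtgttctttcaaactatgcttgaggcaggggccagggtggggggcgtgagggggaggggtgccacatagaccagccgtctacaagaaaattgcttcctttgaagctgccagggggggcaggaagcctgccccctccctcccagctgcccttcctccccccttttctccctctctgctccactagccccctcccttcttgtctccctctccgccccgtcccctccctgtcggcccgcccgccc
Podn, chr4:108031955-108032204, minus strand: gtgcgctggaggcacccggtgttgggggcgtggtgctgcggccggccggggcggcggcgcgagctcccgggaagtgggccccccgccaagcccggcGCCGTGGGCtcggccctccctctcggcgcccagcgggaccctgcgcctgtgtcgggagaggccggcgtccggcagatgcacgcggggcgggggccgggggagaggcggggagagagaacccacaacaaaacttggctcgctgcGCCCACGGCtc

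The motifs were searched on both strands in the 250 bases before each start. GCCNNNGGC, a palindrome bound by AP-2 factors, was found in the first *Podn* window at 154 to 146 and at 11 to 3 bases before the start, in 1 of 9 windows of these genes and in 13.7% of all 32817 windows. TATAAA was found in the windows of *Ogn* and *Aspn* (12.4% of all windows), and in *Ogn* 2 overlapping matches lie 229 to 222 bases before the start. CCAAT was found in those of *Prelp*, *Kera*, and *Aspn* (33.8% of all). TGACTCA, bound by AP-1, and CACGTG, an E-box, were in none of the 9 windows and in 4.46% and 6.02% of all. The windows also differed in base composition, from 30.0% G and C in *Aspn* and 38.4% in *Omd* to 51.2% in *Fmod*, 64.4% in *Bgn*, and 78.0% in the first of *Podn*, against a median of 52.4% for all windows.

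Levels of different genes were compared as CPM per kb of exon. *Bgn*, which encodes biglycan, stood first in both genotypes, at 1043 ± 47.6 CPM per kb in WT and 960 ± 33.5 in *Hint1*-/- MASMCs (SD, n = 4 per genotype). By mean count it was the gene of rank 3 among all 18533. *Dcn* came next, at 190 ± 7.25 CPM per kb in WT and 338 ± 10.5 in *Hint1*-/- samples. *Prelp* followed, at 139 ± 8.20 and 133 ± 7.72 CPM per kb, and then *Ogn*, at 30.0 ± 3.53 and 37.4 ± 1.06. *Fmod* and *Lum* shared the next place in WT, at 18.8 ± 2.51 and 17.8 ± 0.906 CPM per kb, where their samples overlapped. In *Hint1*-/- samples they stood apart, with *Lum* at 32.8 ± 2.09 and *Fmod* at 12.4 ± 0.802. *Podn*, *Omd*, and *Aspn* were lowest, at 2.14 ± 0.206, 0.771 ± 0.210, and 0.467 ± 0.111 CPM per kb in WT. Apart from *Fmod* and *Lum* in WT, neighbors in this order did not overlap in either genotype. The order was the same when the longest transcript was taken as the length, although *Bgn*, whose merged exons span 6099 bases against 2666 for its longest transcript, then reached 2386 CPM per kb in WT.

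**Figure D2:**
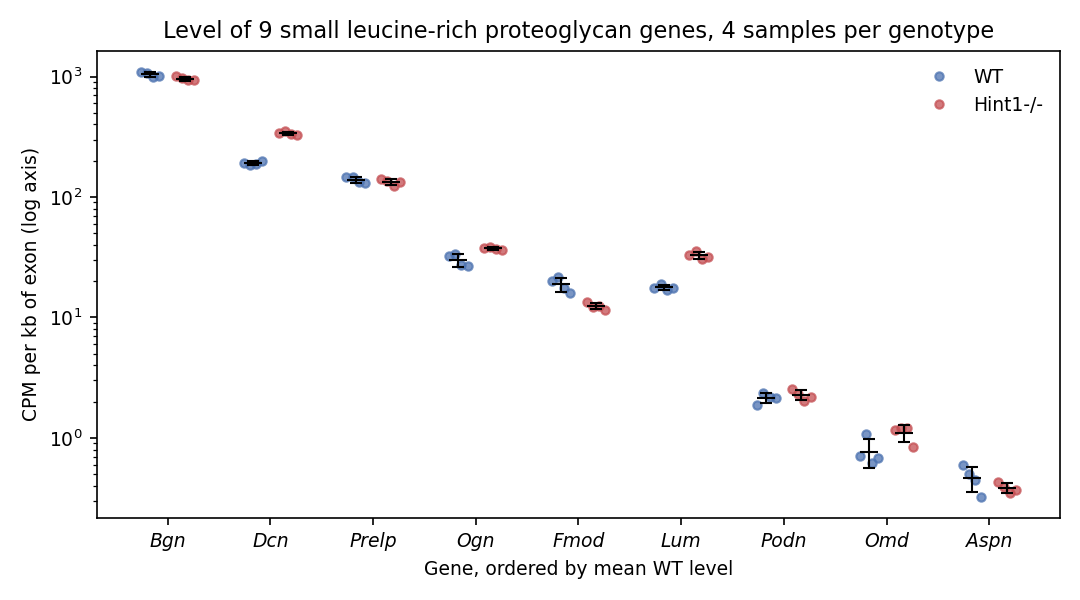
Level of each gene in CPM per kb of exon (log axis) in the 4 WT and 4 *Hint1*-/- samples (points), with the mean and SD (black bars). The genes span from about 1043 CPM per kb for *Bgn* to 0.467 for *Aspn* in WT, and the genotypes separate for *Dcn*, *Lum*, *Fmod*, and *Ogn*.

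*Dcn*, which encodes decorin, had 23230, 22378, 22979, and 24375 counts in WT replicates 1 to 4 and 40965, 42605, 40549, and 39759 counts in *Hint1*-/- replicates 1 to 4. Every *Hint1*-/- sample lay far above every WT sample, and samples of a genotype lay close together, with a coefficient of variation of 3.81% in WT and 3.11% in *Hint1*-/- samples. This amounted to a log2 fold change of 0.83 with an SE of 0.035 and a 95% interval of 0.75 to 0.90, and edgeR gave an adjusted p of 4.4e-12. An exact permutation test, two-sided, gave p = 0.0286, the smallest that 70 assignments of 4 samples against 4 allow. *Lum*, which encodes the keratan sulfate proteoglycan lumican, had 902, 978, 864, and 897 counts in WT and 1664, 1806, 1566, and 1623 counts in *Hint1*-/- replicates 1 to 4. The lowest *Hint1*-/- sample was again well above the highest WT sample. On the log2 scale *Lum* was higher by 0.88, with an SE of 0.047, a 95% interval of 0.78 to 0.98, an adjusted p of 1.3e-10 in edgeR, and the same exact permutation p. Both calls held in all alternatives run, with log2 fold changes from 0.81 to 0.85 for *Dcn* and from 0.84 to 0.92 for *Lum*.

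*Fmod* encodes fibromodulin, which binds collagen at a site it shares with lumican. It had 1391, 1489, 1214, and 1097 counts in WT replicates 1 to 4 and 927, 837, 855, and 796 counts in *Hint1*-/- replicates 1 to 4. WT samples were spread widely, with a coefficient of variation of 13.4% against 6.44% in *Hint1*-/- samples, but the lowest of them was still above the highest *Hint1*-/- sample. Its log2 fold change of −0.59 had an SE of 0.072 and a 95% interval of −0.74 to −0.44, with an adjusted p of 6.9e-06 in edgeR and an exact permutation p of 0.0286. The value sits at the fold limit. It fell within the limit without WT replicate 1 (−0.56), WT replicate 2 (−0.52), *Hint1*-/- replicate 2 (−0.58), or *Hint1*-/- replicate 4 (−0.56), while its adjusted p was at most 7.9e-05 with any 1 sample left out.

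*Ogn*, which encodes osteoglycin, also called mimecan, had 1732, 1811, 1455, and 1436 counts in WT and 2006, 2056, 1981, and 1929 counts in *Hint1*-/- replicates 1 to 4. The genotypes did not overlap, and *Hint1*-/- samples varied by 2.82% against 11.8% in WT. Its log2 fold change of 0.32 had an SE of 0.058 and a 95% interval of 0.20 to 0.44, with an adjusted p of 0.000524 in edgeR, so it lay under the fold limit. *Omd*, its neighbor, encodes osteomodulin, a keratan sulfate proteoglycan of bone. It had 33, 51, 29, and 32 counts in WT and 54, 56, 57, and 39 counts in *Hint1*-/- replicates 1 to 4. *Hint1*-/- replicates 1 to 3 lay above all WT samples, but replicate 4 lay under WT replicate 2. Its log2 fold change was 0.52, with a 95% interval of 0.12 to 0.92 (SE 0.19, adjusted p = 0.0622 from edgeR's test, exact permutation p = 0.0571). *Omd* passed both thresholds without WT replicate 2 (log2 fold change 0.72, adjusted p = 0.0102 in edgeR's test) and without *Hint1*-/- replicate 4 (0.63, adjusted p = 0.0317). Over its alternatives with no test against a fold, its adjusted p ranged from 0.0102 to 0.179. *Aspn*, which encodes asporin, a relative of decorin without a glycosaminoglycan chain, was counted 29, 25, 22, and 16 times in WT and 21, 19, 17, and 18 times in *Hint1*-/- replicates 1 to 4. The *Hint1*-/- samples lay within the WT range. The log2 fold change of −0.28 had a 95% interval of −0.76 to 0.20 (adjusted p = 0.426 from edgeR's test), which does not leave out a fall past the fold limit.

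*Bgn* had 138670, 137894, 127302, and 128111 counts in WT replicates 1 to 4 and 127009, 121892, 117633, and 119415 counts in *Hint1*-/- replicates 1 to 4. After scaling, *Hint1*-/- replicate 1, at 1004 CPM per kb, lay between WT replicates 3 and 4, at 998 and 1006, and the other *Hint1*-/- samples lay under all WT samples. The log2 fold change of −0.12 was small (SE 0.038, 95% interval −0.20 to −0.040, adjusted p = 0.0302 from edgeR's test, exact permutation p = 0.0571). It passed the limit on adjusted p in only 3 of the 8 fits that left out a sample, being at 0.104 without WT replicate 1, 0.0670 without WT replicate 2, and 0.0658, 0.0836, and 0.0715 without *Hint1*-/- replicates 2, 3, and 4. *Prelp* encodes a proline- and arginine-rich protein that binds heparan sulfate and collagen. Its counts were 11025, 11057, 10144, and 9814 in WT and 10634, 10083, 9262, and 9945 in *Hint1*-/- replicates 1 to 4, which overlapped. The log2 fold change was −0.06 with a 95% interval of −0.16 to 0.031 (adjusted p = 0.354 from edgeR's test). *Podn* was counted 167, 213, 195, and 191 times in WT and 225, 206, 180, and 193 times in *Hint1*-/- replicates 1 to 4, with overlap and a log2 fold change of 0.08 (95% interval −0.10 to 0.27, adjusted p = 0.569 from edgeR's test). For *Bgn*, *Prelp*, and *Podn* the whole interval lies within a fold of 1.5 in both directions.

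The makeup of the family differed between genotypes while its sum overlapped. The 9 genes together took 0.788% to 0.849% of all counts in WT and 0.828% to 0.879% in *Hint1*-/- samples. *Bgn* made up 77.2% to 78.4% of these counts in WT and 67.9% to 69.2% in *Hint1*-/- samples, and *Dcn* 12.7% to 14.7% and 22.3% to 23.7%. The ratio of *Bgn* to *Dcn* counts was 5.97, 6.16, 5.54, and 5.26 in WT replicates 1 to 4 and 3.10, 2.86, 2.90, and 3.00 in *Hint1*-/- replicates 1 to 4. The ratio of *Lum* to *Fmod* counts, whose proteins bind the same region of collagen, was 0.648, 0.657, 0.712, and 0.818 in WT and 1.80, 2.16, 1.83, and 2.04 in *Hint1*-/- replicates 1 to 4. *Fmod* was thus counted more often than *Lum* in every WT sample and less often in every *Hint1*-/- sample. These counts are not divided by length, and the merged exons of *Fmod* span 3306 bases against 2448 for *Lum*. Per kb of exon, *Lum* lay above *Fmod* in WT replicate 4, at 17.6 against 15.9 CPM per kb. In the other WT replicates *Fmod* lay above *Lum* per kb too. No test was made of these ratios, since their direction follows from the single genes.

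**Figure D3:**
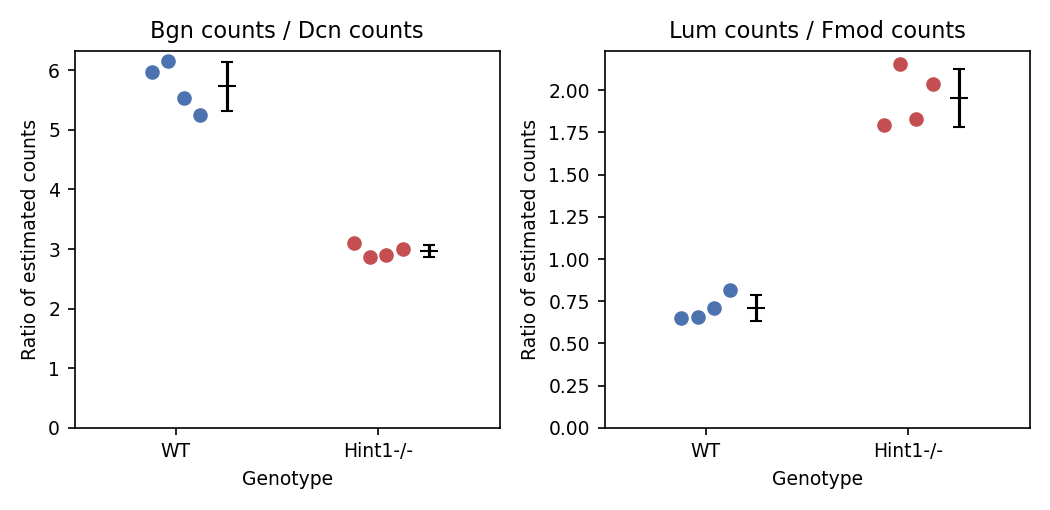
Ratio of *Bgn* to *Dcn* counts and of *Lum* to *Fmod* counts in each of the 4 WT and 4 *Hint1*-/- samples (points), with the mean and SD (black bars). The first ratio is 5.26 to 6.16 in WT and 2.86 to 3.10 in *Hint1*-/- samples. The second lies under 1 in all WT samples and above 1 in all *Hint1*-/- samples. Counts are not divided by length, so a ratio of 1 does not mark equal levels.

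Within a genotype, several of the genes moved together from sample to sample. After the genotype mean was taken from each log2 level, 29 of 36 pairs of genes had a positive correlation over the 8 samples, with a median r of 0.444. These samples share their libraries and scaling, and no such share was computed for pairs of other genes, so the values are descriptive. *Bgn* and *Prelp* were closest (r = 0.942), and *Fmod* and *Ogn* followed each other (r = 0.892), both being higher in WT replicates 1 and 2 than in replicates 3 and 4. *Dcn* stood apart from its fellow genes, with r = −0.516 to *Fmod*, −0.145 to *Bgn*, and 0.192 to *Lum*.

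Among 11842 genes averaging 50 counts or more, those with the level most like *Dcn* over the 8 samples were *Hgf*, the ligand of MET (r = 0.998, log2 fold change 0.96), *Slc16a3*, a lactate transporter (0.997 and 0.71), and *Mmp3*, stromelysin 1 (0.996 and 0.94). For *Lum* they included *Lgi2* (r = 0.995, log2 fold change 0.56) and *Dpy19l1* (0.993 and 0.35). For *Fmod* they were *Tiam2*, a Rac exchange factor (r = 0.987, log2 fold change −0.29), *Tnfsf18* (0.986 and −0.61), and *Cyfip2* (0.985 and −0.77). The 8 samples fall into 2 genotypes, and with so few points these correlations are set mainly by the gap between genotypes.

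The enzymes that build the chains of these proteins showed no call. There were 33 genes listed for the linker region, for chondroitin and dermatan sulfate, and for keratan sulfate. Of these, 29 were tested, and 0 passed both thresholds in edgeR's test, with 3 higher and 3 lower at the limit on adjusted p alone. Beside these and the lists below, 2.83% of all genes tested passed both thresholds. At the limit on adjusted p alone, 11.2% of all genes were higher and 10.2% lower. The medians of the log2 fold change were −0.06 for 6 linker enzymes, −0.03 for 15 chondroitin and dermatan enzymes, and −0.01 for 8 keratan enzymes. The most abundant of each were *Fam20b*, the xylose kinase, at 1749 to 1890 counts in WT and 1720 to 1778 in *Hint1*-/- samples, *Chpf*, the chondroitin polymerizing factor, at 5036 to 5468 and 4901 to 5450, and *B4galt1*, a galactosyltransferase, at 4197 to 4606 and 4213 to 4504.

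The 10 collagen genes listed, of types I, III, V, VI, XII, and XIV, had log2 fold changes from −0.37 to 0.25. None of them passed both thresholds, but at the limit on adjusted p alone 7 were lower and 1 was higher. Their median log2 fold change was −0.17. *Col1a1*, the most abundant, had 71318 to 82758 counts in WT and 64493 to 72545 in *Hint1*-/- samples (log2 fold change −0.17). The gene that was higher, named after its value was seen, was *Col3a1* (24816 to 26051 and 27746 to 32148 counts, log2 fold change 0.25). Of 14 receptors and growth factors known to bind these proteins, 0 passed both thresholds, and 4 were higher and 2 lower at the limit on adjusted p alone, with a median log2 fold change of 0.03. The most abundant was *Lrp1*, an endocytic receptor of decorin (log2 fold change 0.16). The 6 past that limit, named after their values were seen, were *Bmp4* (log2 fold change 0.41), the receptor genes *Egfr* (0.20), *Met* (0.20), and *Lrp1* as higher, and *Ccn4* (−0.41) and *Cd44* (−0.13) as lower. *Igf1r*, another decorin receptor gene, had a log2 fold change of 0.04 and did not pass.

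Of 11 genes linked to the cleavage of matrix proteoglycans or procollagen, *Mmp3* rose and *Mmp9* fell past both thresholds. *Mmp3* had 33510 to 37713 counts in WT and 66465 to 75047 in *Hint1*-/- samples (log2 fold change 0.94, adjusted p = 2.2e-11 from edgeR's test), and *Mmp9*, gelatinase B, had 124 to 143 and 67 to 93 (−0.76, adjusted p = 9.2e-05). At the limit on adjusted p alone 5 were higher and 2 lower, and the median log2 fold change was 0.08. Of 17 other proteoglycan genes tested, 1 rose and 3 fell past both thresholds, with a median of −0.04. *Prg4*, which encodes lubricin, rose from 67 to 93 counts to 124 to 164 (log2 fold change 0.82). *Cspg4*, the NG2 proteoglycan of mural cells, fell from 572 to 681 counts to 338 to 409 (−0.75), *Gpc3*, a glypican, from 128 to 176 counts to 63 to 79 (−1.13), and *Acan*, the large proteoglycan of cartilage, from 14 to 23 counts to 2 to 6 (−1.84). *Hspg2*, which encodes perlecan and was the most abundant, had 20582 to 22825 and 21336 to 26368 counts (0.11). The remaining 8 genes of the same family had 5 tested members and 0 calls. Their median log2 fold change was 0.10, and *Tsku*, the most abundant, had 1798 to 1992 and 1973 to 2035 counts (0.10, adjusted p = 0.0540 from edgeR's test). Among them *Chadl*, named after its value was seen, had 84 to 100 counts in WT and 53 to 70 in *Hint1*-/- samples (log2 fold change −0.57).

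**Figure D4:**
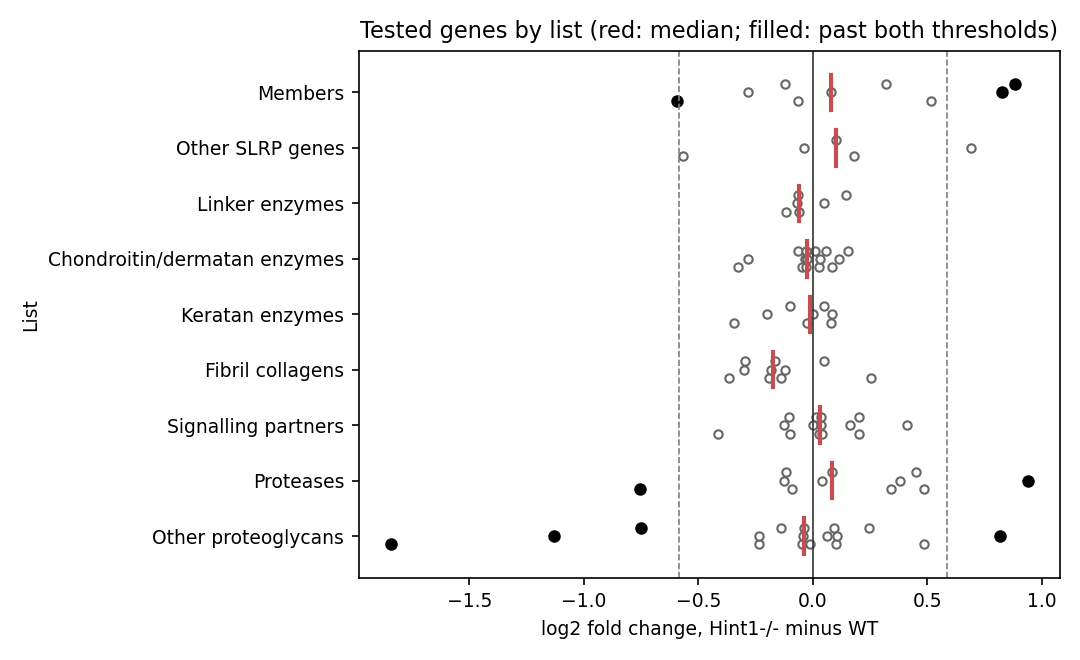
Log2 fold change, *Hint1*-/- minus WT, of each tested gene (points) in the family and in the lists of related genes, with the list's median (line) and dashed lines at a fold of 1.5. Filled points passed both thresholds. The enzyme, collagen, and signaling lists have no filled point, and the open point at 0.69 is *Podnl1*, a family gene of low counts that did not pass the test.

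Levels of cell type markers differed between genotypes beside these results. Smooth muscle markers had 0 genes higher and 3 of 8 lower past both thresholds, with a median log2 fold change of −0.43, and these were *Myh11* (−1.54), *Cnn1* (−1.12), and *Des* (−0.61). The call of *Des* was lost without WT replicate 2 (−0.55) or *Hint1*-/- replicate 2 (−0.54). At the limit on adjusted p alone 6 were lower and 1 was higher, *Smtn*, which encodes smoothelin (3073 to 3456 counts in WT and 3747 to 3953 in *Hint1*-/- samples, log2 fold change 0.25). *Acta2*, smooth muscle actin, fell from 15956 to 17855 counts to 11640 to 12331 without reaching the fold limit (log2 fold change −0.51, adjusted p = 1.4e-08 from edgeR's test). Of 10 fibroblast markers, 2 fell past both thresholds, *Dpt* (−0.79) and *Cd248* (−0.66), and *Dpp4* was higher (1.23, adjusted p = 0.0450 in edgeR's test). The *Dpp4* call rests on WT counts from 1 to 48. It was lost in 6 of 8 fits that left out a sample and in DESeq2 (adjusted p = 0.388). Over the 8 fits, the log2 fold change of *Dpp4* ran from 0.84 without WT replicate 1 to 2.13 without WT replicate 2. The call held in the latter fit. At the limit on adjusted p alone, *Pdgfra* was also higher (0.33) and *Mfap5* lower (−0.20), which makes 2 higher and 3 lower. The summed level of the fibroblast markers, led by *Ly6a*, was 1453 to 1591 CPM in WT and 1370 to 1483 CPM in *Hint1*-/- samples. None of 7 macrophage markers passed both thresholds, 6 were lower at the limit on adjusted p alone, and their median was −0.37. The sum of the chondrocyte markers, led by *Sox9*, ran from 26.0 to 29.0 CPM for WT and from 56.3 to 59.8 for the knockout. Among 5 tested, *Col2a1* (3.41) and *Comp* (0.79) were higher past both thresholds. At the limit on adjusted p alone, *Sox9* (0.48) and *Sox5* (0.41) were also higher, which makes 4 higher and 0 lower. The median log2 fold change was 0.48. Mean CPM went from 2.28 to 24.4 for *Col2a1* and from 17.9 to 24.9 for *Sox9*. *Col9a3* (−0.38) did not pass. *Acan*, a cartilage gene listed above with the other proteoglycans, fell past both thresholds (−1.84). *Hapln1* was near 0 in both genotypes, with 0 counts in every WT library and 0 to 2 in the knockout. *Col9a2*, *Matn1*, and *Matn3* were also too low to be tested. Osteoblast markers, led by *Runx2*, summed to 25.1 to 27.3 and 25.1 to 28.1 CPM, with *Alpl* (0.95) higher among 3 tested. Endothelial markers, led by *Cdh5*, summed to 6.29 to 8.70 and 6.54 to 8.22 CPM, and none of 6 was called. The part that cells of these types had in the values of *Dcn*, *Lum*, *Fmod*, and the others was not tested.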

How the data were processed

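RNA of MASMCs from WT and *Hint1*-/- mice (n = 4 each, all with PDGF-BB) had been sequenced by the study as reads of 50 bp. The authors deposited 1 table of estimated counts per sample, with gene symbols. The study's methods name HISAT2 and mm10, and the submitters' processing notes name Bowtie2, RSEM 1.3.1, and DESeq2 1.4.5. The gene annotation and the use of strand are not given in the sources used here. RSEM shares reads that match several genes, so values of genes with near copies depend on that model.

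The estimated counts were rounded and tested with edgeR 4.0.16 in R 4.3.3 (TMM factors, filterByExpr, quasi-likelihood F test with genotype as the only term), and p-values were adjusted by the Benjamini-Hochberg method over 13535 genes. The SE is the log2 fold change divided by the root of F, and intervals are 95%. A call needed an adjusted p under 0.05 and a fold over 1.5, the limits in the study's methods. Log2 CPM used a prior count of 2. Exact permutation tests were two-sided. Lengths and positions are from GENCODE M21 on mm10, and promoter windows from RefSeq (GRCm38.p6). Since no source says that replicates came from separate mice, p-values measure only the spread between these samples, which may be technical. The fit was tried on simulated counts with 200 changed genes, each changed by more than the fold limit. Calls at that limit, such as that of *Fmod*, were not tried in this way.

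The family members, the gene lists, and the motifs were chosen with earlier results of these data known. The genes named were all members, in each list those called and the most abundant one, the 3 genes most like each called member (1 of them is not reported here), and genes lying between members. The lists covered other family genes, linker, chondroitin and dermatan, and keratan enzymes, collagens, signaling partners, proteases, and other proteoglycans. They also covered markers of fibroblasts, smooth muscle, chondrocytes, osteoblasts, endothelium, and macrophages. Alternatives were other scalings (DESeq2 size factors, upper quartile, library sizes without the 20 most abundant genes and the family), no filter, at least 10 counts in every sample, a replicate block, DESeq2 1.42.0, limma-voom 3.58.1, glmTreat, unrounded counts, no fold limit, each sample left out, and the longest transcript as length.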

Additional observations from a re-analysis of the deposited data

Results flagged for a closer look

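*Omd* in *Hint1*-/- replicate 4 stood apart from its group. It had 39 counts against 54 to 57 in the other *Hint1*-/- samples, and its gap to the nearest of them was 0.864 of the group's range, above Dixon's limit for 4 samples. Of 20 groups examined, 1 was flagged, and chance flags about 1 in 20. Without this sample, *Omd* passed both thresholds (log2 fold change 0.63, adjusted p = 0.0317 in edgeR's test).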

How the results depend on the processing

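Over the alternatives, 162 values of the members' log2 fold changes kept their direction and their side of the thresholds, 5 no longer passed, 4 newly passed, and 0 reversed. The 5 were all of *Fmod*, which glmTreat, a test against the fold of 1.5 itself, and the removal of WT replicates 1 or 2 or *Hint1*-/- replicates 2 or 4 took out of the calls. The 4 were *Omd* without WT replicate 2 or *Hint1*-/- replicate 4, and *Bgn* and *Ogn* with no fold limit. With 4 samples per genotype, a value at the fold limit is moved across it by single libraries. Against 383 genes called (182 higher, 201 lower), glmTreat called 108 (47 higher, 61 lower), with 2 members, both higher, and 0 lower, because it asks for more evidence than the point estimate. With no fold limit 2907 genes passed (1522 higher, 1385 lower), with 5 members, 2 of them lower. With 1 sample left out, 350 to 390 genes passed, and 0 to 1 members were lower. In lists of related genes, glmTreat left 1 of 2 proteases, 2 of 4 other proteoglycans, 1 of 3 fibroblast, 2 of 3 smooth muscle, 1 of 2 chondrocyte, and 0 of 1 osteoblast markers. Leaving out a sample added *Chadl* (without WT replicate 4, −0.60, *Hint1*-/- replicate 1, −0.59, or replicate 2, −0.64), *Cdh5* (without WT replicate 2, −0.63), and *Mrc1* (without *Hint1*-/- replicate 3, 0.73). It took out *Dpp4* in 6 of 8 fits (adjusted p = 0.0566 to 0.137) and *Des* without WT replicate 2 (−0.55) or *Hint1*-/- replicate 2 (−0.54), so that the fibroblast and smooth muscle lists had 2 to 3 calls. *Dpp4* was also lost in DESeq2 and with library sizes without the most abundant genes (adjusted p = 0.388 and 0.0509), and it was not tested with at least 10 counts in every sample. DESeq2 called 343 genes and limma-voom 394. Same-numbered WT and *Hint1*-/- samples had deviations from their genotype means correlated at −0.0492 to 0.183 over 4 pairs. Pairs with different numbers had −0.218 to 0.198. Whether same-numbered samples share a batch is not given in the sources used here and was not tested. With the replicate block, 382 genes passed (183 higher, 199 lower) and no result of the members changed its call, with adjusted p = 0.0449 for *Omd*, still under the fold limit. For *Aspn* and *Omd*, the members with the fewest counts, the intervals of the fold change include the fold limit.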
